A study of Mus musculus with 30 samples.

Results

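The comparison set mouse ES cells in which a catalytically dead SRCAP was the SRCAP left after depletion of the endogenous protein (cdSRCAP IAA) against ES cells that held both endogenous SRCAP and a wild-type SRCAP transgene (wtSRCAP NT). Its libraries are picked by their group labels and not by measured values, as the widest contrast between SRCAP function and its loss in a table of wild-type and catalytically dead rescue lines, and it uses 4 of the 30 libraries of the series, 2 for each group. All cells descend from the mouse ES cell line CGR8 and are SYAT cells, in which the endogenous SRCAP is fused to YPet and an auxin-inducible degron and the F-box protein OsTir1 is expressed, so that the auxin indole-3-acetic acid (IAA) leads to degradation of the tagged protein. On top of this, one line carries a doxycycline-inducible wtSRCAP-mCherry transgene and the other a cdSRCAP-mCherry transgene whose ATPase domain is mutated. The cdSRCAP IAA cells received 500 µM IAA for 4 h and 1 µg/mL doxycycline for 24 h. The wtSRCAP NT cells received the same doxycycline and auxinole, an inhibitor of OsTir1, in place of IAA, and were thus never depleted. The remaining 4 libraries of the table are wtSRCAP IAA and cdSRCAP NT, 2 each, and were fitted together with the comparison. According to the study's methods each line is a single clone, the cells were sorted for similar mCherry, were grown in serum with LIF, and nuclear RNA was sequenced. The construct, the clone and the auxin treatment all change between the 2 groups, so their parts cannot be told apart within the comparison itself; the other 4 libraries and cells without a transgene are set beside it further on.

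SRCAP is the ATPase of a chromatin remodelling complex that exchanges histone H2A for the variant H2A.Z in nucleosomes, mainly those flanking the transcription start sites of active and bivalent promoters and enhancers. In ES cells H2A.Z lies at most promoters and has been tied both to ready activation of genes and to repression of developmental genes. Reads from introns come mostly from nascent or unspliced RNA and follow recent transcription, whereas reads from exons of nuclear RNA also hold spliced transcripts. A gene is called here when edgeR's quasi-likelihood test, with the replicate number as a block, gave a Benjamini-Hochberg adjusted p under 0.05 and an absolute log2 fold change over 0.5. Libraries are named by replicate number, the first value of each pair being replicate 1. Log2 fold changes are given for cdSRCAP IAA over wtSRCAP NT with their standard error (SE), and levels as library-size-scaled counts (CPM) in each library. These levels are not scaled to gene length and are compared within a gene, except for sums of markers and medians over sets of genes.

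The 8 libraries held between 2006573 and 5398261 intron counts and between 12236493 and 26369773 exon counts, with the first wtSRCAP IAA library the shallowest. After removal of genes with low counts, 12702 genes were tested in introns and 19111 in exons. Srcap itself, on chromosome 7 (127511983 to 127561219, plus strand, mm10), was at 52 and 48.9 CPM in exons of the wtSRCAP NT libraries and at 74.5 and 61.3 CPM in those of cdSRCAP IAA. The log2 fold change of 0.43 (SE 0.153) did not pass the test (adjusted p = 0.0931), and it says nothing about depletion, since IAA acts on the protein and exon counts do not separate the transgene from the endogenous gene. All 8 libraries had 0 counts in the introns of Srcap, as had 1247 of 11125 expressed multi-exon genes, so an intron value of 0 in all libraries can reflect how introns were counted.

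The libraries were those of pluripotent cells. The 8 pluripotency markers summed to 2440 and 2750 CPM in wtSRCAP NT and to 3470 and 4160 CPM in cdSRCAP IAA. Such a sum gives most weight to the genes with most counts and does not hold for each member. Pou5f1, the central pluripotency factor, was at 686 and 671 CPM in wtSRCAP NT and at 850 and 789 CPM in cdSRCAP IAA, and was not called. The summed markers of other cells were far below those of pluripotent cells. The 8 markers of mesoderm and endoderm summed to 6.47 and 4.54 CPM in wtSRCAP NT and to 12.2 and 12.1 CPM in cdSRCAP IAA, the 5 neural markers to 37.4 and 80.5 against 73.6 and 107 CPM (Neurog2 was at 0 in all 8 libraries), and the 4 trophoblast markers to 4.46 and 4.54 against 3.92 and 2.91 CPM. Most of the neural sum was Tubb3, at 26.2 and 71.9 CPM in wtSRCAP NT and at 47.7 and 87.4 CPM in cdSRCAP IAA. It differed more between replicates than between the groups. Each of the 4 markers of 2-cell-like cells was under 1 CPM in every library. In bulk RNA, fewer cells of a type and less RNA per cell cannot be told apart, and the part of such cells in the results was not tested.

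In introns 613 of 12702 genes (4.83%) were higher in cdSRCAP IAA than in wtSRCAP NT and 355 (2.79%) were lower. Without the replicate block the same test called 254 higher and 122 lower. Most were protein-coding genes (590 of those higher and 332 of those lower). The change exceeded 2-fold in 294 (48%) of the genes that were higher and in 178 (50.1%) of those that were lower. The 2 libraries of each group did not overlap for 604 (98.5%) of the genes called higher, where 24.4% of all tested genes had both cdSRCAP IAA libraries above both wtSRCAP NT libraries, and for 344 (96.9%) of the genes called lower, where 25.6% of all genes had them below.

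In exons 734 of 19111 genes (3.84%) were higher and 744 (3.89%) were lower. These counts depend on the replicate block: without it 1 gene was higher and 2 were lower, while 1989 genes had an unadjusted p under 0.05. The groups did not overlap for 712 (97%) of the genes called higher and 719 (96.6%) of those called lower, against 21.4% and 22.4% of all genes. The labels do not say what a replicate is, and the study's methods call them biological duplicates, grown and treated separately. The p-values rest on the spread left between libraries once the replicate block is taken out, pooled over all groups of the fit. They do not measure the plain spread between the 2 libraries of a group, and each line is 1 clone.

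Intron and exon counts of the same libraries moved the same way for nearly all genes called in introns. The sign was not compared from the side of genes called in exons. Of 11311 genes tested in both, 603 were higher in introns, and 261 of these (43.3%) were also called higher in exons, which is 45.3% of the 576 called higher there. Of 348 genes lower in introns, 129 (37.1%) were also called lower in exons, 20.6% of the 626 lower there. The exon log2 fold change was above 0 for 578 (95.9%) of the genes higher in introns and below 0 for 334 (96%) of those lower, with medians of 0.64 and -0.67, whereas 46.9% of all genes were above 0. A single gene, C2cd3, was called in opposite ways, and it is named because it was the exception. Its intron counts were 0 in both wtSRCAP NT libraries against 2.94 and 7.80 CPM, while its exon level fell from 47.4 and 50.7 to 34.3 and 31.0 CPM.

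**Figure D1:**
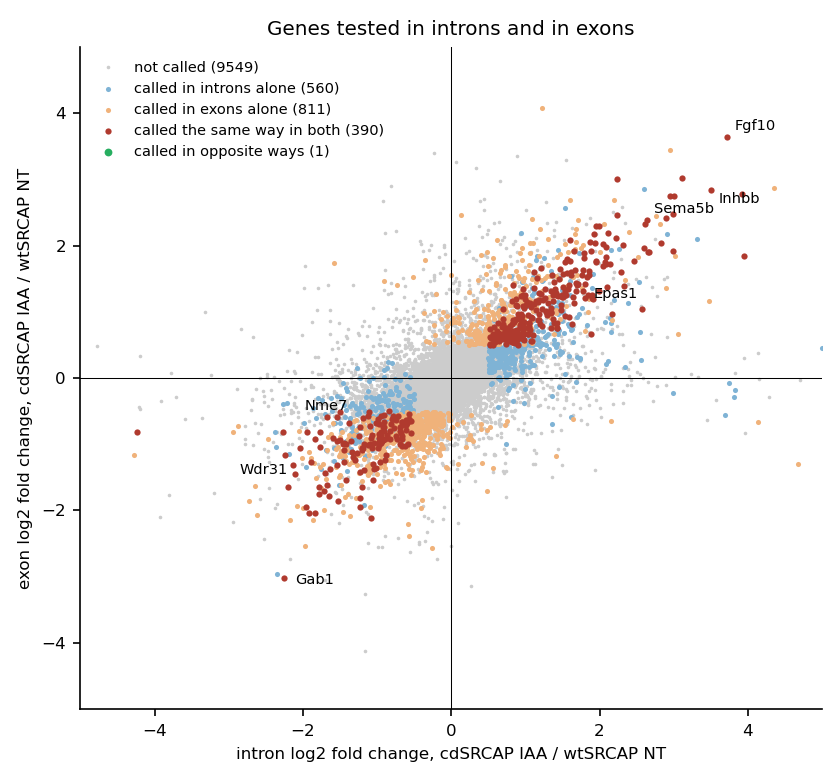
Log2 fold change of cdSRCAP IAA over wtSRCAP NT in introns (x axis) and in exons (y axis) for the 11311 genes tested in both, 1 point a gene, coloured by whether the gene was called in introns, in exons or in both. Of these genes 58 lie outside the axes, which end at 5, and the 390 genes called the same way in both lie along the diagonal.

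The genes that rose with the smallest p in introns included growth factors, adhesion and guidance molecules, and transcription factors. Vegfc, a growth factor of lymphatic vessels on chromosome 8 (54077606 to 54187096), was at 231.6 and 152.9 CPM in wtSRCAP NT and at 834.6 and 603.6 CPM in cdSRCAP IAA. Its log2 fold change was 1.91 (SE 0.105, adjusted p = 2.41e-05), and both depleted libraries lay far above both controls. Epas1, the hypoxia-inducible transcription factor HIF-2α, rose from 144.9 and 152.3 to 497.8 and 514.3 CPM, a log2 fold change of 1.77 (SE 0.0989) with less spread between replicates than that of Vegfc. Sema5b, a semaphorin that guides axons, rose from 32.9 and 60.2 to 255 and 312 CPM (2.63, SE 0.174), and its exon level rose alike (2.39, SE 0.241). Igsf21, a synaptic adhesion protein, changed by 2.83 (SE 0.172), Itga9, an integrin subunit, by 1.84 (SE 0.147), and Nrg1, a ligand of ErbB receptors, by 1.66 (SE 0.131). Among transcription factors, Zfp423 was at 981 and 1122 CPM in wtSRCAP NT and at 3220 and 2922 CPM in cdSRCAP IAA (1.54, SE 0.118). The adjusted p without the block remained under 0.05 for these 7 genes, between 0.00137 for Epas1 and 0.00959 for Vegfc.

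Among the genes that rose in both introns and exons, Fgf10, a fibroblast growth factor, had among the largest values in both. Its intron level went from 2.81 in each wtSRCAP NT library to 29.4 and 46.3 CPM (3.72, SE 0.423) and its exon level from 0.0648 and 1.09 to 7.95 and 6.23 CPM (3.65, SE 0.533). Mras, a Ras-family GTPase, rose from 8.03 and 12.4 to 40.0 and 41.8 CPM in exons (2.00, SE 0.211) and by 2.31 (SE 0.160) in introns. Ddx60, a helicase of the antiviral response, was low but rose by 2.61 in introns (SE 0.321) and 2.33 in exons (SE 0.441). Runx1, the regulator of blood formation, rose by 2.22 (SE 0.348) in introns and by 2.11 (SE 0.437) in exons, where it was at 1.36 and 0.772 CPM in wtSRCAP NT and at 4.76 and 4.17 CPM in cdSRCAP IAA. These 4 genes had no overlap between the 2 groups in either kind of count. That is no added support, since 98.5% of genes called higher in introns and 97% in exons had none. Among all tested genes 24.4% and 21.4% lay apart in this direction.

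Inhbb and Bmp4, ligands of the TGF-β family that act through SMAD transcription factors, were among the 10 genes called higher with the smallest p in exons. Inhbb, the β subunit of activin B on chromosome 1 (119415465 to 119422248), was at 22.9 and 14.4 CPM in wtSRCAP NT and at 160.7 and 104.6 CPM in cdSRCAP IAA. Its log2 fold change was 2.84 (SE 0.168, adjusted p = 8.22e-11), and the lowest depleted library lay above the highest control by a wide margin, although the adjusted p was 0.0956 without the block. Bmp4, which signals through SMAD1 and SMAD5 and sustains self-renewal with LIF, rose from 27.5 and 15.6 to 90.9 and 81.5 CPM (2.05, SE 0.193, adjusted p = 0.108 without the block). Of 19 tested genes of the BMP and Id list 5 were higher and 0 lower in exons, where 3.84% of all tested genes were higher. The list's median log2 fold change was 0.33 where the median of all genes was 0.00605. The 4 with the smallest p were Bmp4, Chrd, a BMP antagonist (1.51, SE 0.265), Id4, an inhibitor of differentiation factors (1.55, SE 0.355), and Smad6, an inhibitory SMAD (1.28, SE 0.314). Of 17 genes of the Nodal and Lefty list 6 were higher and 0 lower, with a median of 0.27. Without the block 0 of these were called, and with single libraries left out 4 to 6. Nodal rose from 39.1 and 39.4 to 75.4 and 65.4 CPM (0.84, SE 0.166), its convertase Pcsk6 by 0.92 (SE 0.161), its co-receptor Tdgf1 by 0.90 (SE 0.149), and its antagonist Lefty2 by 1.52 (SE 0.225).

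**Figure D2:**
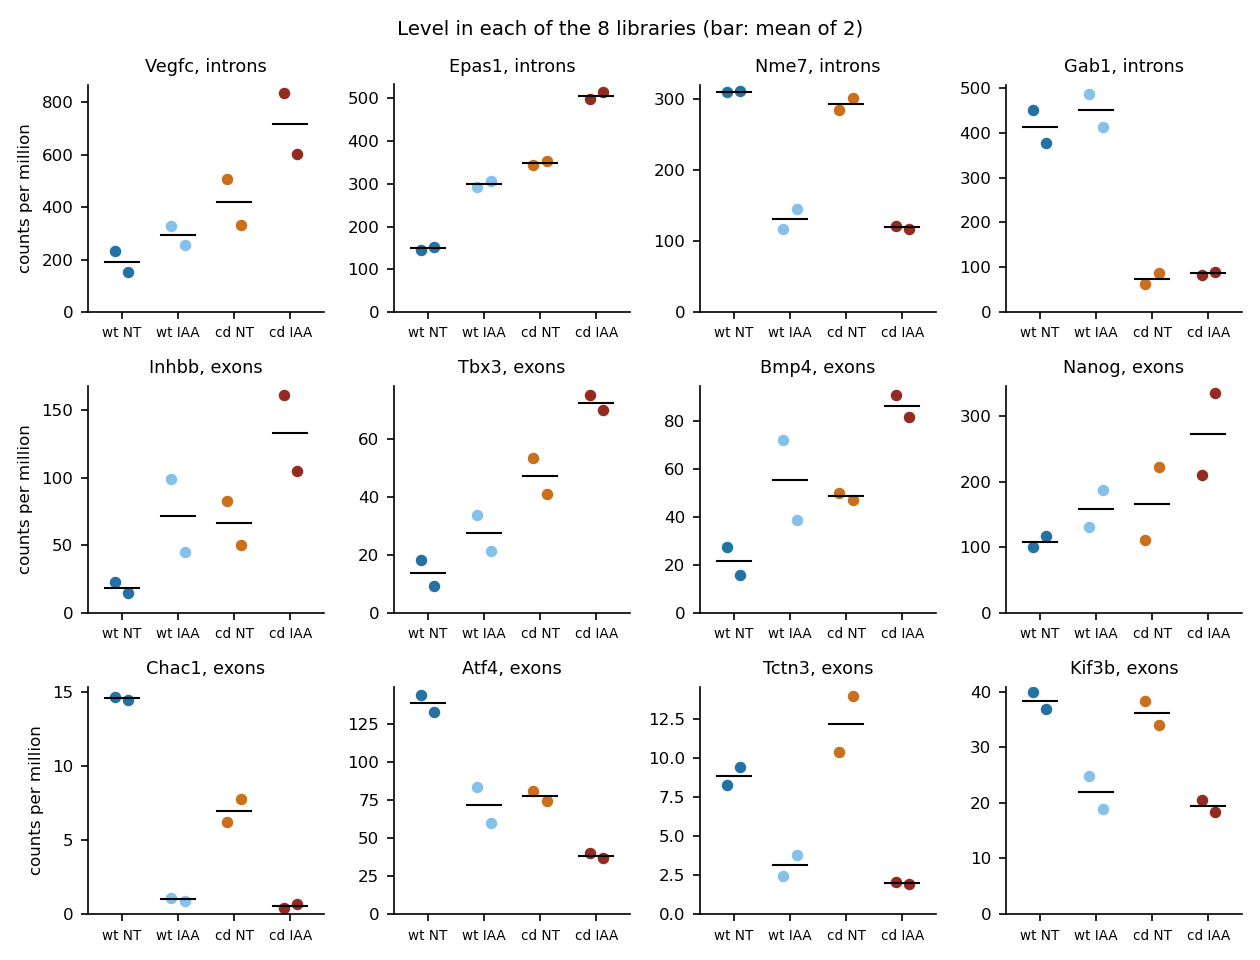
Level (CPM, linear axes from 0) of 12 genes in introns (upper row) or exons (middle and lower rows) in each of the 8 libraries, 1 point a library with a bar at the mean of 2, for wtSRCAP NT (wt NT), wtSRCAP IAA (wt IAA), cdSRCAP NT (cd NT) and cdSRCAP IAA (cd IAA). Epas1 stood at 144.9 and 152.3 CPM in wtSRCAP NT and at 497.8 and 514.3 CPM in cdSRCAP IAA, and Chac1 fell from 14.6 and 14.4 CPM to 0.418 and 0.673 CPM.

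The naive pluripotency list holds transcription factors and markers of ES cells that resemble the preimplantation epiblast. Of its 24 genes tested in exons 15 were higher and 1 was lower, with a median log2 fold change of 0.58. Of 20 tested in introns 5 were higher and 0 lower, with a median of 0.63 against -0.0138 for all genes. Among all tested genes 3.84% were higher in exons and 4.83% in introns. Nanog, a homeodomain factor of the pluripotency network on chromosome 6 (122707489 to 122714633), was at 100 and 117.3 CPM in wtSRCAP NT and at 210 and 334.6 CPM in cdSRCAP IAA. The log2 fold change was 1.28 (SE 0.159, adjusted p = 1.35e-05, 0.233 without the block), and the 2 cdSRCAP IAA libraries differed from each other more than the controls did. Tbx3, a T-box factor of the naive state, rose more, from 18.3 and 9.31 to 75.1 and 69.8 CPM (2.46, SE 0.196). In introns, Nr5a2, an orphan nuclear receptor, went from 649.2 and 728.6 to 1211 and 1331 CPM (0.88, SE 0.0860), and its adjusted p was 0.0181 without the block. Esrrb, another orphan nuclear receptor, rose by 0.80 (SE 0.164) in introns and by 0.66 (SE 0.156) in exons. The member that was lower was Dppa3, a maternal factor that protects against DNA demethylation, which fell from 12.9 and 6.81 to 4.08 and 4.08 CPM (-1.22, SE 0.362). Without the block 0 of the list was called in exons and 2 in introns, and with each library left out in turn 8 to 15 and 2 to 7 members were called higher.

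Other signalling lists moved upward in part. Of all tested genes 3.84% were higher and 3.89% lower in exons, and 4.83% and 2.79% in introns. Of 21 genes of the FGF and ERK feedback list 7 were higher and 1 lower in exons (median 0.42), and 3 of 19 were higher in introns. Without the block 0 were called higher in either, and with single libraries left out 2 to 9 in exons and 2 to 4 in introns. They include the ligand Fgf4, which rose from 135 and 200 to 253 and 270 CPM (0.67, SE 0.142), and the ERK pathway inhibitors Spry4 (0.80, SE 0.133) and Spred2 (0.60, SE 0.137). Of 28 Wnt genes 6 were higher and 0 lower in exons, with a median of 0.24. The clearest was Sfrp1, a secreted Wnt antagonist, at 32.6 and 40.8 CPM in wtSRCAP NT and at 123.7 and 123.1 CPM in cdSRCAP IAA (1.76, SE 0.153). Notum, an extracellular enzyme that inactivates Wnt ligands, rose by 1.66 (SE 0.203), and Wnt5a, a ligand of the non-canonical pathway, from 1.75 and 2.13 to 6.12 and 7.40 CPM (1.81, SE 0.380). None of Sfrp1, Notum and Wnt5a was called in exons without the block. Among 16 genes of LIF and CNTF receptor signalling 3 were higher and 1 lower. Lifr, the LIF receptor, went from 307.4 and 311.7 to 562.4 and 490.8 CPM (0.77, SE 0.144), Socs3, its feedback inhibitor, by 0.81 (SE 0.150), and the gene that was lower, Gab1, is described below. Neither Lifr nor Socs3 was called in exons without the block. Of 9 genes of the MEIS, PBX and PKNOX homeodomain family 4 were higher in introns, Meis1 and Meis2 among them, and 0 lower, and 2 of 11 were higher in exons. Without the block 3 and 0 were called, and with single libraries left out 2 to 4 and 0 to 2. Meis1 rose from 36.5 and 20.7 to 93.6 and 83.2 CPM in introns (1.66, SE 0.262), and its exon level was 2.14 and 1.36 against 6.70 and 6.23 CPM.

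Nid1, Notch4 and Shisa2 were among the 10 genes called higher with the smallest p in exons. Nid1, a basement membrane linker, rose from 35.7 and 55.3 to 155.5 and 165.9 CPM (1.85, SE 0.156), with both libraries of cdSRCAP IAA far above both controls. Notch4, a Notch receptor, rose by 2.41 (SE 0.216) and Shisa2, which retains Wnt and FGF receptors in the endoplasmic reticulum, by 2.25 (SE 0.212, adjusted p = 0.0325 without the block). Shisa2 was at 5.83 and 7.40 CPM in wtSRCAP NT and at 30.1 and 32.9 CPM in cdSRCAP IAA.

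The genes that fell most included those of the amino acid response. ATF4 is the transcription factor that is translated when the kinases of the integrated stress response sense a lack of amino acids or other stress, and it activates amino acid transporters, synthesis enzymes and tRNA synthetases. Of 37 tested genes of this list 13 were lower and 0 higher in exons (3.89% of all tested genes were lower), with a median log2 fold change of -0.47. In introns 12 of 29 were lower and 0 higher (2.79% of all tested genes were lower), with a median of -0.97. The count depends on the block and on single libraries: without the block 1 was called in exons and 7 in introns, and with each library left out in turn 5 to 16 and 6 to 15. Atf4 itself, on chromosome 15 (80255184 to 80257541), was at 144.2 and 132.6 CPM in wtSRCAP NT and at 40.0 and 36.7 CPM in cdSRCAP IAA (-1.85, SE 0.154, adjusted p = 3.72e-08, 0.054 without the block). Chac1, a glutathione-degrading enzyme on chromosome 2 (119351229 to 119354381), had the largest fall of the list in exons, from 14.6 and 14.4 to 0.418 and 0.673 CPM. Its log2 fold change was -4.71 (SE 0.374, adjusted p = 1.78e-08, 0.00975 without the block). Mthfd2, a mitochondrial folate enzyme, fell from 79.7 and 97.0 to 35.8 and 37.4 CPM (-1.26, SE 0.172), and the amino acid transporter Slc1a4 from 40.3 and 27.6 to 13.3 and 12.2 CPM (-1.39, SE 0.196).

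In introns the synthesis enzymes and tRNA synthetases led the list. Cars, the cysteinyl-tRNA synthetase, was at 153.3 and 158.2 CPM in wtSRCAP NT and at 52.0 and 49.9 CPM in cdSRCAP IAA (-1.61, SE 0.150, adjusted p = 0.00326 without the block). Aldh18a1 of proline synthesis fell by 1.95 on the log2 scale (SE 0.193) and Psat1 of serine synthesis went from 149.4 and 142.1 to 59.8 and 44.9 CPM. Aars, the alanyl-tRNA synthetase, went from 100.5 and 117.4 to 40.2 and 51.0 CPM (-1.26, SE 0.158). Its exon value of -0.46 (SE 0.143) did not reach the fold threshold.

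The 5 promoters printed here are shown because they belong to members called lower in introns or exons and hold a match to TGATGNAA, the core of the C/EBP-ATF response element through which ATF4 activates such genes. The sequences are those of RefSeq on GRCm38.p6, from 250 bases before to 50 bases after the annotated start, read 5′ to 3′ in the direction of transcription, with each match on either strand in capitals. The Chac1 promoter lies at chr2:119350992-119351291 on the plus strand, with its match at position -193 from the start. That of Slc1a4 lies at chr11:20332664-20332963 on the minus strand, with its match at position -4, and that of Nupr1, a stress-induced chromatin protein, at chr7:126625421-126625720 on the minus strand, with its match at -110. The promoter of Trib3, a pseudokinase that inhibits AKT and ATF4, lies at chr2:152344011-152344310 on the minus strand (match at 15 bases after the start), and that of Aars at chr8:111033592-111033891 on the plus strand, with 2 matches of which the first is at -112.
Chac1: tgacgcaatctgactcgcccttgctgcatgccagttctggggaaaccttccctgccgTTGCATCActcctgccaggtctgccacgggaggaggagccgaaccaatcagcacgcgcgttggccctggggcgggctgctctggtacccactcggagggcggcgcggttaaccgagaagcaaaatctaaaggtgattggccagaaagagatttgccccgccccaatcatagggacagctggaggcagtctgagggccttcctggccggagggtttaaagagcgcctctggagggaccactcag
Slc1a4: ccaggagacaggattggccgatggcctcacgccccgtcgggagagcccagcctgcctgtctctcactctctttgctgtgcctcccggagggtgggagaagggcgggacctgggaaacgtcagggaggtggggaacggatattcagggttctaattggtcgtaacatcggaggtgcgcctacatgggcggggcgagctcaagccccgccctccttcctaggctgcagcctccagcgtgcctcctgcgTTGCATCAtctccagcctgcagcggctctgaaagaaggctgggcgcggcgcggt
Nupr1: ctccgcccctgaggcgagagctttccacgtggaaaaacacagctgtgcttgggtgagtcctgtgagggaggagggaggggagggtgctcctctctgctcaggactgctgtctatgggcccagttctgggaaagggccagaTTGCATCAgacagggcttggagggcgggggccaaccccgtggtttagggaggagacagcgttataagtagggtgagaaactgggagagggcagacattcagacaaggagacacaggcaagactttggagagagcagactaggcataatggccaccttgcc
Trib3: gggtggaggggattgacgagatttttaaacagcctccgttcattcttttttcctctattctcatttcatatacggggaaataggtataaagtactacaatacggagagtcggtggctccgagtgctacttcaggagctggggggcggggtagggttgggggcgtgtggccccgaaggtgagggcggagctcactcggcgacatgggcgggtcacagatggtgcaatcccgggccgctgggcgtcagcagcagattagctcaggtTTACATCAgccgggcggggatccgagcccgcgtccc
Aars: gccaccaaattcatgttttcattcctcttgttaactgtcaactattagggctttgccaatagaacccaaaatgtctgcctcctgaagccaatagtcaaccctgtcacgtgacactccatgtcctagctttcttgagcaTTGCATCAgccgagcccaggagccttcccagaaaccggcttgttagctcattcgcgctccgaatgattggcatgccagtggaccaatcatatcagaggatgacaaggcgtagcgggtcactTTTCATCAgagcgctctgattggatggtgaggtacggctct
Of the 37 list genes tested in exons 31 had an entry in the promoter table. A match was held by 10 of these and by 5 of the 16 called lower in introns or exons. Members called lower thus did not hold it at a higher share than the list as a whole. Of all 32851 entries, which can be several for a gene, 1304 (3.97%) held a match. With 1 entry a gene, as for the list, 243 of 10888 protein-coding genes tested in exons (2.23%) did. Nupr1 and Trib3 are named for their promoters and have small counts or wide spread. Nupr1 fell from 3.11 and 2.86 to 0.575 and 1.03 CPM in exons (-1.91, SE 0.572), and Trib3 from 23.4 and 29.7 to 14.1 and 12.2 CPM (-1.04, SE 0.262). The list was chosen for the ATF4 response, so its share beside that of all genes is no test. A match is a description of the sequence and was not tested as a binding site.

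Genes of the primary cilium were lower and never called higher. Cilia are built by intraflagellar transport, in which kinesin-2 carries cargo outward, the BBSome adapts membrane proteins, and the transition zone gates the base. Of 60 tested members 12 were lower and 0 higher in exons (3.89% of all tested genes were lower), with a median of -0.47. In introns 15 of 54 were lower (2.79% of all tested genes were), with a median of -0.82. Without the block 0 were called in exons and 6 in introns, and with single libraries left out 2 to 18 and 4 to 20. Tctn3, a transition zone protein, fell from 8.29 and 9.40 to 2.04 and 1.93 CPM in exons (-2.15, SE 0.309). Kif3b, a motor subunit of kinesin-2, went from 39.9 and 37.0 to 20.5 and 18.4 CPM (-0.98, SE 0.177), with replicates of each group close together. In introns Kifap3, the adaptor of the same motor, fell from 159.5 and 161.5 to 81.1 and 80.1 CPM (-0.99, SE 0.141), and Ift43 of the retrograde transport complex from 121 and 93.1 to 31.9 and 48.4 CPM (-1.42, SE 0.218). Rpgrip1l was at 25.3 and 11.2 CPM in introns of wtSRCAP NT and at 0 and 0.190 CPM in cdSRCAP IAA, at least 27.9-fold lower when the floor is set at 3 counts in each cdSRCAP IAA library. Its exon level was at 8.81 and 10.1 CPM against 4.34 and 6.32 CPM (-0.85, SE 0.306, adjusted p = 0.0948), so that the gene was not called in exons. The letters GTTNCCAT of an X-box arm, the element of RFX factors that control cilium genes, were searched on either strand. They were found in the promoters of 1 (Tctn2) of the 52 members with a RefSeq entry. Of all entries 4.46% held them, and of protein-coding genes tested in exons with 1 entry each 3.29%.

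The 15 genes called lower with the smallest p in introns, which the naming rule fixed, included no member of the cilium list. Cep128, a protein of centriolar appendages, was at 351.5 and 313.1 CPM in wtSRCAP NT and at 153.2 and 143.3 CPM in cdSRCAP IAA (-1.16, SE 0.102). Sdccag8, a centrosomal protein whose loss causes a ciliopathy, fell from 141.2 and 158 to 66.7 and 56.7 CPM (-1.28, SE 0.149), and Nme7, a component of the γ-tubulin ring complex, from 310 and 311.1 to 121.8 and 117.2 CPM (-1.38, SE 0.122). For all of these the groups were far apart, and the adjusted p without the block was 0.00431, 0.00531 and 0.00326. The remaining genes among these 15 included Patj, a tight junction scaffold (-1.50, SE 0.130), Ldah, a lipid droplet hydrolase (-1.77, SE 0.182), Hdx, a homeobox gene (-1.79, SE 0.205), Pcca, a subunit of propionyl-CoA carboxylase (-1.62, SE 0.186), Fto, an RNA demethylase (-0.98, SE 0.105), and Fars2, the mitochondrial phenylalanyl-tRNA synthetase (-0.86, SE 0.0928), beside Wdr7, Nxpe4 and Focad.

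Cholesterol genes, which SREBP transcription factors control, were also lower. Of 29 tested in exons 11 were lower and 0 higher (3.89% of all tested genes were lower), with a median of -0.50. Of 24 in introns 4 were lower (2.79% of all tested genes were), with a median of -0.64. Without the block 0 and 2 were called, and with single libraries left out 3 to 14 and 0 to 5. The sterol synthesis enzymes Msmo1 (-1.15, SE 0.184) and Dhcr7 (-1.15, SE 0.209) fell in exons, where the 2 libraries of wtSRCAP NT differed strongly for Msmo1, at 34.8 and 70.8 CPM against 19.4 and 25.8 CPM in cdSRCAP IAA. Acat2, which condenses acetyl-CoA, fell in introns from 28.4 and 29.4 to 8.82 and 12.2 CPM (-1.48, SE 0.343). Only 19 of the 29 members had a promoter entry, too few to say how much of the list holds the sterol element TCACNCCAC. It was found on either strand in 1 of the 19, that of Hmgcs1. Of all entries 1.24% held it, and of tested protein-coding genes with 1 entry each 1.11%.

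Gab1, a docking protein that couples receptor tyrosine kinases and gp130 to SHP2 and PI3K, fell strongly in introns and exons. On chromosome 8 (80764438 to 80880519, minus strand), it was at 450.4 and 377.4 CPM in wtSRCAP NT introns and at 83.1 and 90.2 CPM in cdSRCAP IAA (-2.25, SE 0.169). In exons it fell from 106.7 and 130.1 to 13.4 and 15.8 CPM (-3.02, SE 0.182, adjusted p = 8.22e-11, 0.0226 without the block). Other genes with small exon p were Cdcp1, a transmembrane glycoprotein (-1.95, SE 0.253), Hs6st2, a heparan sulphate sulphotransferase (-1.82, SE 0.257), and Rdh11, a retinol dehydrogenase that fell from 33.7 and 35.2 to 11.9 and 11.8 CPM (-1.54, SE 0.191). The keratins Krt8 (-1.25, SE 0.318) and Krt18 (-1.17, SE 0.280) were called lower, but their wtSRCAP NT libraries differed widely, with Krt8 at 68.5 and 20.8 CPM, against 14.8 and 16.7 CPM in cdSRCAP IAA, and the adjusted p was 0.424 without the block.

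The SRCAP machinery and general expression showed few calls. Of all tested genes 3.84% were higher and 3.89% lower in exons, and 4.83% and 2.79% in introns. Of 9 tested SRCAP complex subunits 0 were higher and 2 lower in exons, Dmap1 (-0.80, SE 0.188) and Vps72, which binds H2A.Z (-0.59, SE 0.175), and 0 of 8 were called in introns. Of 15 genes for H2A.Z and other exchange factors, Ino80, the ATPase of another remodeller, rose by 0.60 (SE 0.142) and Kat5, the acetyltransferase of the TIP60 complex, fell by 0.70 on the log2 scale (SE 0.176). None of Dmap1, Vps72, Ino80 and Kat5 was called in exons without the block. H2afz, the main gene for H2A.Z, was at 432 and 641 CPM in wtSRCAP NT and at 564 and 702 CPM in cdSRCAP IAA, and was not called. Of 78 ribosomal protein genes 0 were called in exons, with log2 fold changes between 0.0512 and 0.435 and a median of 0.22, and 0 of 29 splicing factor genes were. Of 31 Polycomb genes 2 were higher and 1 lower in exons. Jarid2, a cofactor of Polycomb repressive complex 2, was among the 4 of 22 that were higher in introns, from 3438 and 2581 to 5535 and 4135 CPM (0.68, SE 0.0799), and its adjusted p was 0.24 without the block.

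**Figure D3:**
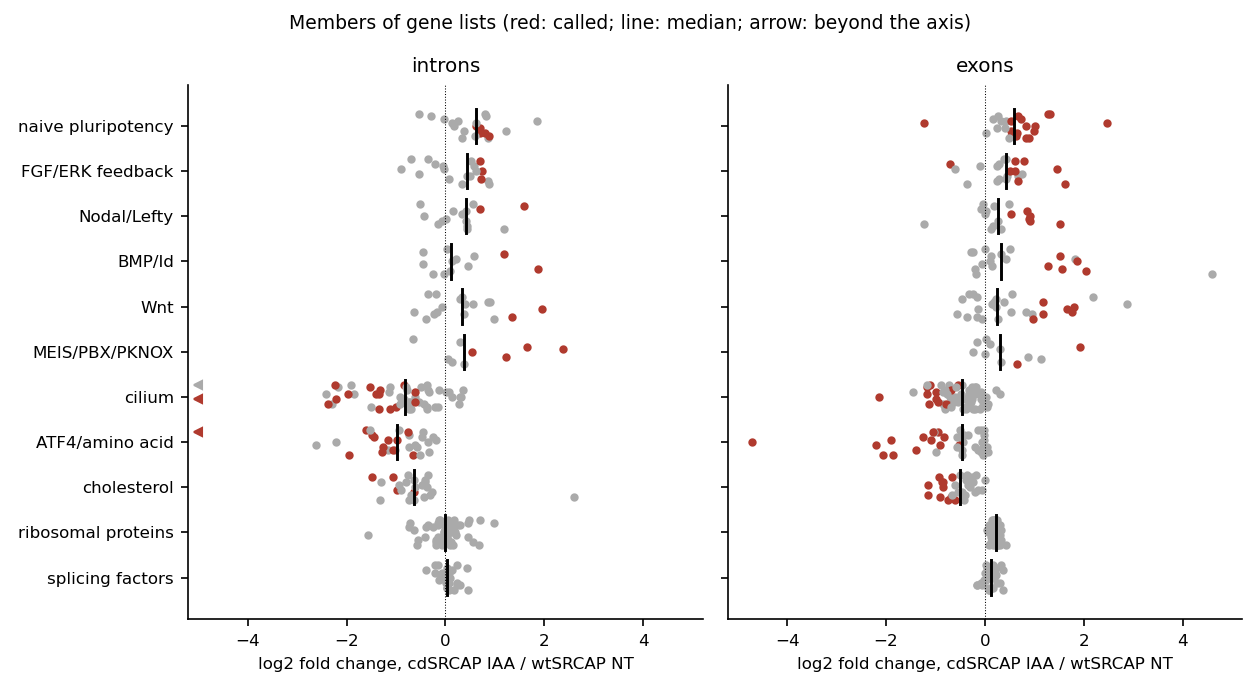
Log2 fold change of cdSRCAP IAA over wtSRCAP NT for each tested member of 11 gene lists, in introns (left) and exons (right), with called members in red, the others in grey and a line at the list's median. The medians of the cilium list are -0.82 and -0.47, those of the naive pluripotency list 0.63 and 0.58, and arrows mark members beyond the axis.

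The change of treatment and the change of line can each be read from the other groups of the same fit. These contrasts share libraries with it, so their values are given side by side and are no independent support. Replacing auxinole by IAA in the wtSRCAP line called 119 (0.937%) genes higher and 173 (1.36%) lower in introns and 332 (1.74%) and 280 (1.47%) in exons. Exchanging the line for cdSRCAP without IAA called 128 (1.01%) higher and 8 (0.063%) lower in introns and 117 (0.612%) and 57 (0.298%) in exons. In introns the line thus had 8 genes called lower without IAA, where 355 were lower in the whole comparison. With IAA in both lines, cdSRCAP had 37 (0.291%) lower than wtSRCAP. The 8 depended on the processing, with 34 by DESeq2, 77 without a filter on low counts and 1 without the block. The part of the line in the falls was not tested.

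The named genes fell into different patterns of these steps. Epas1 introns rose with either step, by 1.01 (SE 0.0993) with IAA in the wtSRCAP line and by 1.23 (SE 0.0983) with the line, and reached 1.77 with both. Inhbb exons likewise rose by 1.89 and by 1.82, and Bmp4 exons by 1.35 and by 1.23. The groups between the extremes lay between them: Epas1 was at 292.6 and 305.9 CPM in wtSRCAP IAA and at 343.1 and 352.9 CPM in cdSRCAP NT. Kif3b and Nme7 were called with IAA and not with the line. Kif3b exons changed by -0.83 with IAA in the wtSRCAP line (adjusted p = 0.0108) and by -0.09 with the line (adjusted p = 0.947), and Nme7 introns by -1.24 (adjusted p = 0.00221) and by -0.08 (adjusted p = 0.869). Cep128 introns were at 351.5 and 313.1 CPM in wtSRCAP NT, 147 and 135 CPM in wtSRCAP IAA, 393 and 370 CPM in cdSRCAP NT, and 153.2 and 143.3 CPM in cdSRCAP IAA. Lefty2 exons rose with IAA, by 1.96, and not detectably with the line (-0.04, adjusted p = 0.989). Gab1 showed the reverse, since its exons changed by -2.91 with the line and by 0.27 with IAA (adjusted p = 0.421), and Ncam1, a neural adhesion molecule, rose by 1.48 with the line and by 0.28 with IAA (adjusted p = 0.605). Atf4 exons fell with either step, by 0.97 and by 0.84 on the log2 scale, while Chac1 changed by -3.93 with IAA and by -1.06 with the line (adjusted p = 0.0898).

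**Figure D4:**
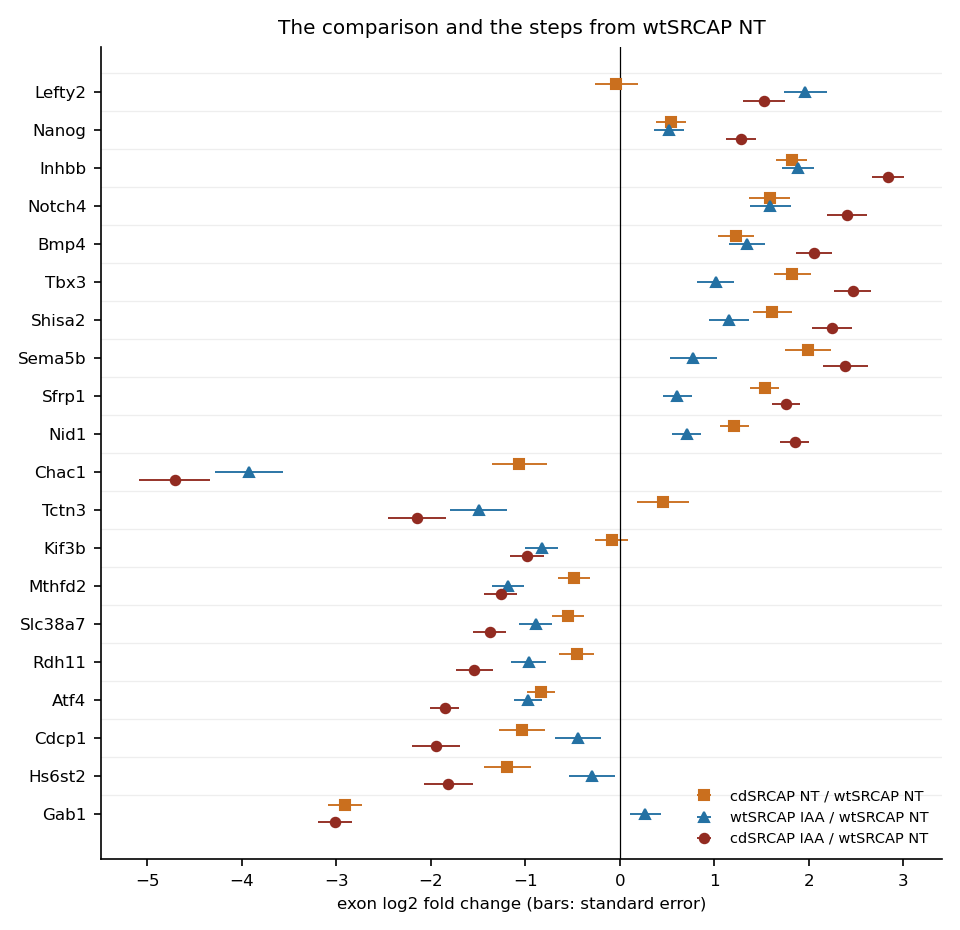
Exon log2 fold change with its standard error for 20 named genes in the comparison (circles), with IAA in the wtSRCAP line (triangles) and with the cdSRCAP line before IAA (squares), all against wtSRCAP NT. Kif3b lies near 0 for the line and near -0.83 and -0.98 for the other contrasts. Gab1 lies close to 0 for IAA in the wtSRCAP line and far below 0 for the line and the comparison.

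Whether IAA acted differently in the 2 lines was asked by the interaction of construct and IAA. In exons 0 genes were called by edgeR (562 had an unadjusted p under 0.05, and DESeq2 called 1). In introns 2 were called, Ttc27 and Cd81, neither of which was called in the comparison itself, and both rest on libraries with 0 intron counts. Of the genes called in the comparison 0 were called in the interaction. A p that misses the threshold does not show that the effects were equal.

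The 4 libraries that the comparison does not use allow the line and IAA to be set against each other in the called genes. The contrast of cdSRCAP NT over wtSRCAP IAA is positive where the line raised a gene more than IAA did. It is also positive where IAA lowered a gene more than the line did. This contrast, chosen after the data had been seen, called 512 (4.03%) genes higher and 226 (1.78%) lower in introns and 601 (3.14%) higher and 857 (4.48%) lower in exons. Of the 613 genes higher in introns 62 were called higher in it and 24 lower, and of the 355 lower in introns 6 were lower and 118 higher. In exons 52 of the 734 higher genes were called higher and 58 lower, and of the 744 lower genes 59 were lower and 160 higher. Kif3b, for example, which fell with IAA, differed by 0.74 (adjusted p = 0.0109). Tbx3 differed by 0.81 (adjusted p = 0.00843), whereas Inhbb (-0.07) and Bmp4 (-0.12) were not called.

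Libraries of other cells, in a separate table and with no library shared, were set beside the called genes after the data had been seen. SYAT cells without a transgene lose endogenous SRCAP after 4 h of IAA. Their exon counts alone were used. In them 27 (0.141%) genes were higher and 49 (0.255%) lower, and without the block 0 were called. Of the 729 genes called higher in the comparison with a SYAT value, 660 (90.5%) were above 0 in SYAT cells, against 51.5% of all genes, with a median of 0.37 against 0.011, and 14 were called higher. Of 744 genes called lower 691 (92.9%) were below 0, against 48.5% of all genes, with a median of -0.50, and 37 were called lower. In both directions 0 were called the opposite way. Across 18104 genes, which are not independent, Spearman's rho was 0.498.

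Parental CGR8 cells carry neither the degron nor OsTir1, so that they show what IAA does without SRCAP depletion. The study's methods name auxinole as the control of SYAT cells and of the transgenic lines, and do not name it for CGR8 cells. With the block 320 (1.58%) genes were higher and 180 (0.889%) lower in their exons and 9 (0.066%) and 22 (0.161%) in their introns. Without it 0 and 2 were called in exons and 2 and 1 in introns. Of the 729 genes called higher in the comparison 457 (62.7%) were above 0 in CGR8 cells, against 50.9% of all genes, and 30 were called higher and 6 lower. Of the 744 called lower 505 (67.9%) were below 0, against 49.1%, and 30 were called lower and 5 higher. In introns 63.4% of those called higher and 52.9% of those called lower had the same sign, against 52.5% and 47.5% of all genes. Spearman's rho across genes was 0.096 in exons and 0.0546 in introns.

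The lists differed in how they behaved in these cells. Of the ATF4 and amino acid list, the exon median was -0.42 in CGR8 cells and -0.10 in SYAT cells, beside -0.47 in the comparison. Atf4 changed by -1.53 (SE 0.127, adjusted p = 1.89e-05) in CGR8 cells, Chac1 by -3.07 (SE 0.290) and Slc1a4 by -1.81 (SE 0.146), while in SYAT cells Chac1 changed by -2.04 (adjusted p = 0.0473) and Atf4 by -0.47 (adjusted p = 0.206). Of the cholesterol list the medians were -0.38 in CGR8 and -0.19 in SYAT cells. The cilium list had the other order, with a median of 0.03 in CGR8 cells and -0.45 in SYAT cells, and Kif3b changed by -0.22 (adjusted p = 0.447) and by -1.04 (adjusted p = 0.0473). The naive pluripotency list had medians of 0.06 and 0.23, with Nanog at 0.63 in CGR8 cells (adjusted p = 0.00493) and at 0.69 in SYAT cells (adjusted p = 0.0547). Inhbb rose by 1.64 in SYAT cells (adjusted p = 0.0452) and was at 0.29 in CGR8 cells (adjusted p = 0.247), and Lefty2 rose by 1.21 in CGR8 cells (adjusted p = 0.000327). Differences between cells were not tested, because the libraries come from separate tables. The values of cells without the degron stand beside the ATF4, cholesterol, Nanog and Lefty2 results of the comparison. The part of IAA without depletion in these results was not tested.

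**Figure D5:**
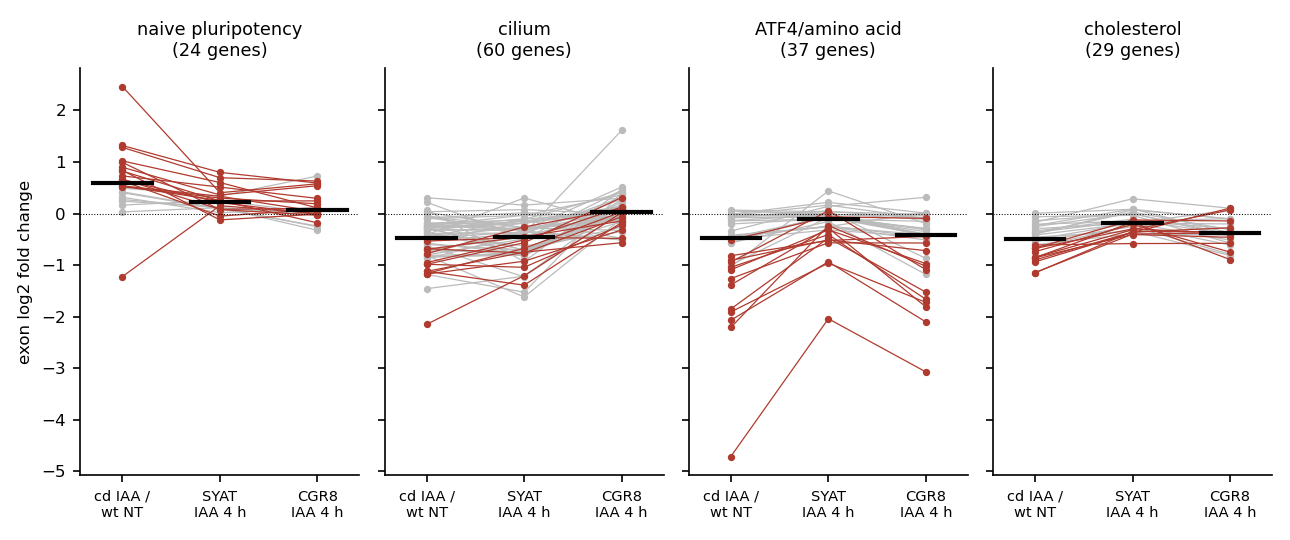
Exon log2 fold change of the members of 4 lists in the comparison (cd IAA / wt NT), in SYAT cells and in parental CGR8 cells, the latter both with IAA over control at 4 h, 1 line a gene, in red where called in the comparison, with a bar at each median. The cilium medians are -0.47, -0.45 and 0.03 and those of the ATF4 list -0.47, -0.10 and -0.42.

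Called genes differed from all tested genes in length and in their neighbours, given here as descriptions. Protein-coding genes called higher in introns had a median length of 126 kb and those called lower 72.6 kb, where the median of all tested was 32.3 kb, and their median intron levels in wtSRCAP NT were 89.8 and 78.0 CPM against 26.9 CPM. In exons, the medians were 33.6, 25.3 and 24.0 kb. A divergent gene that starts within 1000 bases lay beside 12 (2.03%) of the genes higher in introns and 41 (12.3%) of those lower, against 1112 (9.72%) of all, and beside 16 (2.33%), 97 (13.3%) and 1345 (9.58%) in exons. Genes called higher thus had such a neighbour at a lower share than those called lower in both kinds of count. Over chromosomes 1 to 19 and X, the median log2 fold change of all tested genes lay between -0.118 (chromosome 19) and 0.0862 (chromosome 18) in introns and between -0.0813 (X) and 0.0581 (chromosome 13) in exons. The Y chromosome, with 6 genes tested in introns and 5 in exons, had medians of 0.35 and 0.65, and the 20 mitochondrial genes tested in exons had a median of 0.39.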

How the data were processed

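RNA-seq of nuclear RNA was measured with a directional kit in 75-nt paired reads. Per the labels and methods, the authors mapped reads with STAR to mm10 and assigned them with featureCounts to GENCODE vM25 exons and to introns, defined as gene bodies without exons, and deposited raw counts per gene and library. Whether counting used strand is not given in the sources used here, so reads of overlapping genes (99 of the 191 named genes overlap another) cannot be told apart. From the deposited counts of the 8 wtSRCAP and cdSRCAP libraries, exons and introns were fitted separately with edgeR 4.0.16 (R 4.3.3) by TMM normalization, filterByExpr (minimum count 10, total 15), group and replicate number as terms, and the quasi-likelihood test with Benjamini-Hochberg adjustment over all tested genes. The table of 55401 genes was matched by identifier to a GENCODE vM21 annotation (55141 matched) for positions on mm10.

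The replicate number comes from the labels, which do not say that it marks a shared day or culture, and the block was part of how the comparison was defined. Differences between replicates correlated between each of the 6 pairs of groups with r from 0.0759 to 0.296 in introns and from 0.259 to 0.376 in exons. The comparison, its gene lists and the rule for named genes were chosen with earlier results of these data known. Named were Srcap, the 15 called genes with the smallest p in each direction in introns and 10 in exons, genes called in the same direction in both (up to 15 by intron change), up to 4 called members of a list, and the 5 smallest interaction p values of each kind. Gene models without a proper symbol were counted and not named. Genes outside this rule (Pou5f1, Dppa3, H2afz, Nupr1, Trib3, Hmgcs1, Neurog2, C2cd3) were named after their values were seen.

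Alternatives were fits without the block, RLE size factors, other filters on low counts, DESeq2 1.42.0, the 4 libraries alone, some chromosomes or genes with a 0 left out, and each library left out. In the tables used, 10 columns, the intron counts of the SYAT time course, were not used. Promoters were RefSeq entries on GRCm38.p6, matched by identifier. Fewer than 80% of the genes of some called sets had an entry, so a check of promoter composition over called genes is void and is not given. Counts are whole reads without molecular identifiers, and the floor of 3 counts covers counting error only. Results for some genes are not reported here.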

Additional observations from a re-analysis of the deposited data

Results flagged for a closer look

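Ttc27, a tetratricopeptide repeat gene, and Cd81, a tetraspanin, were the 2 genes in whose introns the effect of IAA differed between the cdSRCAP and wtSRCAP lines by edgeR's test of the interaction. The difference between the 2 log2 effects of IAA was 10.8 for Ttc27 (SE 1.15, adjusted p = 0.0354) and -18.61 for Cd81 (SE 1.62, adjusted p = 0.0354). Both values come from libraries without any intron count and depend on the prior count of the fit, so that they are no measure of size. Ttc27 had 269 and 260 intron counts in wtSRCAP NT, 0 and 0 in wtSRCAP IAA, 551 and 304 in cdSRCAP NT, and 268 and 467 in cdSRCAP IAA, while its exon counts were 478 and 1638 in the wtSRCAP IAA libraries. Cd81 had 79 intron counts in the first wtSRCAP IAA library, 187 in the first cdSRCAP NT library and 0 in the other 6, whereas all 8 libraries held exon counts of it, between 1539 and 4440. Neither gene was called in the comparison of cdSRCAP IAA with wtSRCAP NT. Without the replicate block 0 genes were called in introns.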

How the results depend on the processing

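Without the replicate block 376 genes were called in introns in place of 968 and 3 in exons in place of 1478, and the interaction gave 0 in introns in place of 2. The intron calls of the comparison numbered between 676 and 1445 under the other tools, filters and scalings, and those of exons between 1066 and 1519 except for edgeR on the 4 libraries alone, which called 2550. Leaving out single libraries gave 378 to 1335 calls in introns and 441 to 2421 in exons. The libraries that decided most were those compared: without wtSRCAP_NT replicate 1 or 2, 378 and 393 intron and 446 and 556 exon calls were left, and without cdSRCAP_IAA replicate 1 or 2, 614 and 455 intron and 441 and 558 exon calls. Without wtSRCAP_IAA replicate 1 or 2 exons gave 2421 and 2402 calls. The interaction in introns gave 84 calls without a filter, 1 with a stricter one, 6 with DESeq2 and 0 to 43 with each library left out. In exons it gave 6 without a filter, 1 with DESeq2 and 0 to 762 with each library left out, the highest without wtSRCAP_IAA replicate 2. The causes were not tested.

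Of the steps, IAA in the wtSRCAP line gave 292 calls in introns and 612 in exons (38 and 1 without the block, 35 to 875 and 66 to 2915 under the other alternatives), and the cdSRCAP line without IAA gave 136 and 174 (13 and 0 without the block, 13 to 438 and 46 to 667). The contrast of cdSRCAP NT with wtSRCAP IAA gave 738 and 1458 calls, and 125 and 1 without the block. Among 233 called values of named genes 0 changed sign. Without the block 159 lost their call, and 78 to 83 did when 1 library of the compared groups was left out. In every alternative with a block 111 remained called, and in every alternative 59. With 2 libraries a group and intron totals as low as 2006573 counts, small changes of weakly covered introns were not detectable at this depth.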

Other observations

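Lineage genes that are low in ES cells were higher in part. Of 17 mesoderm and endoderm genes tested in exons 3 were higher and 0 lower in cdSRCAP IAA, with a median log2 fold change of 0.91. Of 12 neural and ectoderm genes 2 were higher, with a median of 1.20. Among all tested genes 3.84% were higher and 3.89% lower. The filter on low counts kept 17 of 26 and 12 of 20 annotated members and can keep a gene through the group where it is high. The medians thus do not describe the whole lists, and 2 and 1 of the kept members were at the floor in a compared group. Eomes, a T-box factor of mesendoderm, rose from 4.66 and 2.95 to 9.89 and 9.24 CPM (1.36, SE 0.312), and Pax6, a neural and eye factor, from 9.71 and 7.67 to 23.0 and 17.5 CPM (1.22, SE 0.218). Of 12 trophoblast genes 2 were higher and 3 lower, and of 13 primitive endoderm genes 2 were higher. Without the block the adjusted p was 0.243 for Eomes and 0.171 for Pax6.

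Stress and cell cycle lists other than those of ATF4 and cholesterol held few calls in exons. Of all tested genes 3.84% were higher and 3.89% lower, so 1 or 2 calls need not set a list apart. Of 20 p53 targets 2 were higher, of 34 G1/S and replication genes 2 were higher, of 26 G2/M genes 1 was lower, of 25 hypoxia and glycolysis genes 1 was higher, and of 15 heat shock genes and 20 replication-dependent histone genes 0 were called. Ccnd2, a D-type cyclin of the G1/S list, rose from 3.95 and 14.1 to 44.9 and 52.8 CPM (2.63, SE 0.293, adjusted p = 3.4e-06, 0.218 without the block). Egln3, the oxygen-sensing prolyl hydroxylase, rose from 4.08 and 4.81 to 10.8 and 10.2 CPM (1.25, SE 0.301). Of 23 genes of the endoplasmic reticulum unfolded protein response 1 was higher, Xbp1 (0.56, SE 0.168), and 2 were lower, Herpud1 (-1.57, SE 0.276) and Sel1l (-0.80, SE 0.154). Of 27 cytoskeleton and adhesion genes 4 were lower and 1 higher, and of 14 metallothionein and zinc genes 2 were lower, Mt1 (-0.76, SE 0.149) and Mt2 (-0.50, SE 0.155), whose first and second libraries differed by more than the groups did. Mt1 was at 140.8 and 319.5 CPM in wtSRCAP NT and at 77.0 and 204.9 CPM in cdSRCAP IAA.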
